A study of Mus musculus with 41 samples.

Results

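The 10 genes described here serve the cortical epithelium of the thymus: Psmb11, Prss16, Ctsl, Ly75, Dll4, Cd83, Krt8, Krt18, Tbata and Crip3. They were taken by name from a list of cortical epithelial function genes, and every listed gene had at least 1 probe in the deposited table, 14 probes in all, among 13283 genes with a probe of their own. Where a gene had several probes, its value is that of the probe of highest mean. The genes were followed in 2 fractions of CD45- thymic cells sorted by flow cytometry from male C57Bl/6 mice, the EpCAM+ epithelial cells (TEC) and the EpCAM- remainder of the stroma (nonTEC). Each fraction was taken from unoperated young mice of 5 to 6 weeks, from unoperated middle-aged mice of 9 to 12 months, and from middle-aged mice that had been castrated or sham-castrated. TEC were taken at day 4, 7 and 20 after surgery and nonTEC at day 4 and 7. The series asks how thymic stroma changes with age and during the regrowth that follows castration. There were 24 TEC arrays in 8 groups of 3 and 17 nonTEC arrays in 6 groups of 3, except for sham nonTEC at day 7 with 2. Whether the arrays of a group stem from different animals is not stated, and the p-values therefore reflect array-to-array spread alone, which may be technical.

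Thymocytes mature in the cortex by reading self peptides on the major histocompatibility complex (MHC) molecules of cortical epithelial cells. Psmb11 encodes β5t, the catalytic subunit of the thymoproteasome that prepares peptides for MHC class I. Prss16 (thymus-specific serine protease) and Ctsl (cathepsin L) prepare peptides for class II, Ly75 (CD205, DEC-205) is an endocytic receptor that marks cortical cells, and Cd83 limits the turnover of class II molecules on their surface. Dll4 is the Notch ligand that commits incoming progenitors to the T lineage. Krt8 and Krt18 form the keratin filaments of cortical and other simple epithelia. Tbata encodes a protein first named for its abundance in thymus, brain and testis, and Crip3 encodes a cysteine-rich LIM-domain protein that is abundant in thymus.

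The 250 bases before the start of transcription are shown for the genes whose control region the account returns to. RefSeq promoters (build GRCm38.p6) matched 7 of the 10 genes. Psmb11 is a target of Foxn1, the transcription factor that sets thymic epithelial identity and binds a core of GACGC. That core was searched on both strands, where the other strand reads GCGTC. The common promoter element CCAAT was searched likewise, where the other strand reads ATTGG, and matches of either are in capitals. Tbata, Krt8 and Krt18 are shown beside it because they moved together in nonTEC. All are written 5′ to 3′ along the gene's own strand.
Psmb11, chr14:54625060-54625309, plus strand: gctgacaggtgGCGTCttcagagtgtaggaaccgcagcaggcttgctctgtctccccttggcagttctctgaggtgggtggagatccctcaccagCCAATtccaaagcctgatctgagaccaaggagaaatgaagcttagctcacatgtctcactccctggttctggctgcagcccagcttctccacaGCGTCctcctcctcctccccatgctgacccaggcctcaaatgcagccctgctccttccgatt
Tbata, chr10:61171714-61171963, plus strand: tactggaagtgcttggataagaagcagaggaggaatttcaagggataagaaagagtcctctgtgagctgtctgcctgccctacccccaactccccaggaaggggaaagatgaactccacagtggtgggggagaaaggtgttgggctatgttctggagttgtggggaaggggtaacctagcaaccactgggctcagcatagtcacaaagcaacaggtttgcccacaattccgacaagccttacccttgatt
Krt8, chr15:102004343-102004592, minus strand: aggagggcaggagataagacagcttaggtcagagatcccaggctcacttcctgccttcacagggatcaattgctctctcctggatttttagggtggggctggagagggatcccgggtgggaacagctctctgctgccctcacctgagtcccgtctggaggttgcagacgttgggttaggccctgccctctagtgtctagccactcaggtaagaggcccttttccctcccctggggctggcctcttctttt
Krt18, chr15:102027966-102028215, plus strand: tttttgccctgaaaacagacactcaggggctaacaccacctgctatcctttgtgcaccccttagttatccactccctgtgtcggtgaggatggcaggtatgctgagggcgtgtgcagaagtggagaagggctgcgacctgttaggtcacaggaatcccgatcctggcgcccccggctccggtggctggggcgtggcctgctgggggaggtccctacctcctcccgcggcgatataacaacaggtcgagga
GACGC or GCGTC was found in 1 of the 7 windows, that of Psmb11, with 2 matches that begin 239 and 62 bases before the start. Of all 32851 promoter windows of the same length, 22.6% held a match. CCAAT or ATTGG was found in 3 of the 7 (Psmb11, Dll4 and Ly75), against 33.8% of all windows. The windows of Tbata, Krt8 and Krt18 held neither. A match is only a description of letters in this window.

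Values are log2 intensities. A gene was called too dim in a group whose mean lay below 6.73, the median of all deposited values, and it was tested in a fraction if at least 1 group mean lay above it. Dll4 was too dim in all 14 groups and was not tested; its group means ran from 5.28 to 6.01 in TEC. Psmb11 and Prss16 were too dim in 4 of the 8 TEC groups each and in all 6 nonTEC groups. Ly75 passed the threshold only in the 2 TEC groups of day 20, and no nonTEC value of it was analysed here. Ctsl was too dim in young mice of both fractions. Krt8, Krt18, Tbata, Crip3 and Cd83 were above the threshold in all 8 TEC groups. In nonTEC, Crip3 was too dim in 3 groups, Cd83 in 4 and Krt18 in 1. This left 9 genes tested in TEC, 6 in nonTEC and 8 across the fractions. A gene can thus be tested through groups other than those compared, and the size of a difference from a group below the threshold is less secure. Precision is set by how few arrays a group has.

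**Figure D1:**
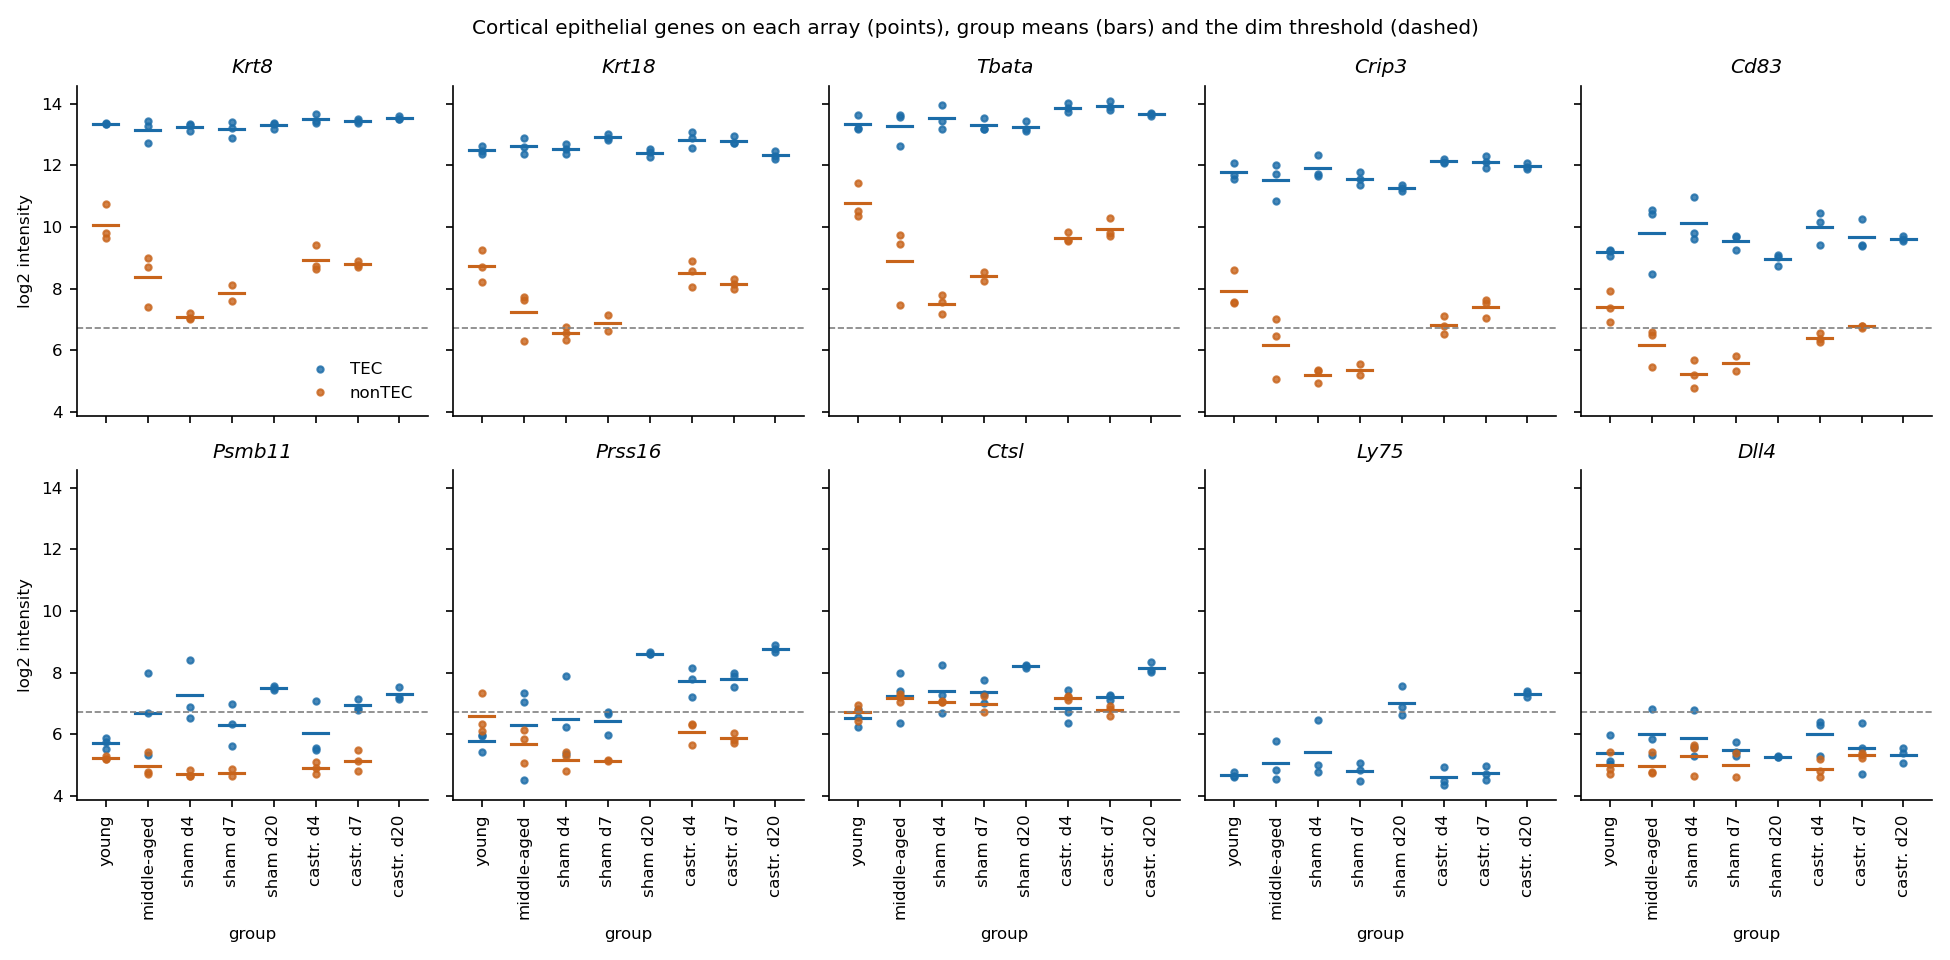
The log2 intensity of each of the 10 genes (vertical axis) on every array (points) in the 14 groups (horizontal axis), with group means as bars, TEC in blue and nonTEC in orange; the dashed line marks 6.73, below which a group mean is called too dim. Krt8, Krt18, Tbata, Crip3 and Cd83 lie above it in every TEC group, while Ly75 lies above it in the 2 day 20 groups and Dll4 in no group.

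The 6 TEC arrays of day 20 stood apart from the other 18 on the first principal component, which carried 37.8% of the variance: they scored 0.28 to 0.38 and the others -0.24 to 0.01. On the second component (20.4%) middle-aged array 2 scored 0.53, middle-aged array 3 -0.43 and castrated day 4 arrays 2 and 3 -0.35 and -0.42, outside the others (-0.19 to 0.22). TEC sham array 3 of day 4 carried more signal of other cells than arrays 1 and 2 of its group, with a mean of 7.97 over 7 of 9 listed fibroblast markers against 6.49 and 6.48, and of 9.36 over 6 of 12 thymocyte markers against 6.67 and 6.72. The part of such signal in the results was not tested. In sorted bulk RNA, fewer cells of a type and less RNA per cell cannot be told apart. Of the genes of the sort gate, Ptprc, which encodes CD45, was below the dim threshold in all 6 nonTEC groups (4.42 to 5.14). Foxn1 was below it in all 8 TEC groups (4.74 to 5.81). The medullary epithelial markers Aire, Fezf2 and Ccl21a were above it in all 8 TEC groups, beside the cortical genes.

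In TEC, none of the 9 genes differed between middle-aged and young mice in limma at an adjusted p under 0.05, when 11.9% of the 8195 genes tested were higher and 6.88% lower. The keratins were close to level. Krt8, the type II filament of simple epithelium, read 13.36, 13.33 and 13.34 on the young arrays and 13.27, 12.73 and 13.45 on the middle-aged arrays. Its difference was -0.19 ± 0.14 (SE), adjusted p = 0.350 (limma). Krt18, its type I partner, read 12.37, 12.47 and 12.64 in young and 12.60, 12.35 and 12.89 in middle-aged TEC, a difference of 0.12 ± 0.14. The arrays of both groups overlapped for all 10 genes, while 26.8% of all genes tested did not overlap.

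The 4 genes of peptide preparation and uptake spread widely in middle-aged TEC. Psmb11 read 5.75, 5.53 and 5.90 on the young arrays and 8.0, 6.71 and 5.34 on the middle-aged arrays. Prss16 read 5.99, 5.42 and 5.95 in young and 7.04, 4.52 and 7.36 in middle-aged mice. Ctsl read 6.57, 6.84 and 6.23 in young and 7.99, 7.42 and 6.37 in middle-aged mice. Middle-aged array 3 was lowest for Psmb11 and Ctsl and array 2 lowest for Prss16, the 2 middle-aged arrays at opposite ends of the second component. The differences were 0.96 ± 0.54 for Psmb11, 0.52 ± 0.57 for Prss16, 0.71 ± 0.37 for Ctsl and 0.38 ± 0.37 for Ly75, with adjusted p of 0.181 to 0.543 (limma). Without middle-aged array 3, 2 of the 9 genes passed the threshold, Psmb11 at 1.63 (adjusted p = 0.0222) and Ctsl at 1.16 (0.0184, limma), both higher in middle-aged TEC. Without middle-aged array 2, Cd83 passed at 1.30 (0.0175). Of 9 genes of stress and handling, 4 were higher in middle-aged TEC, where 11.9% of all genes were. The part of the stress genes was not tested.

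A sharper contrast appeared when the sham mice, which are also middle-aged, were set against young mice. Averaged over days 4, 7 and 20, sham TEC had more Ctsl (1.11 ± 0.30, adjusted p = 0.0105), Prss16 (1.41 ± 0.47, 0.0312) and Psmb11 (1.30 ± 0.44, 0.0360, all limma). Ly75 was at 1.06, which is a description only, since it entered the test through the day 20 groups. Apart from Ly75, the genes past the threshold were Ctsl, Prss16 and Psmb11, where 12.2% of all genes tested were higher and 14.1% lower. With Ly75 counted, the fit called 4 of 9 genes, a count that is a description only. In young TEC all 4 genes were below the dim threshold. Beside them, 4 of 4 pan-leukocyte markers were lower (means of 11.39 in young and 9.92 to 11.12 in the sham groups), as were 4 of 9 medullary and 4 of 7 pericyte markers. Higher were 1 of the 7 pericyte markers and 3 of 9 stress genes. Their part was not tested. Psmb11 read 6.89, 6.52 and 8.43 in sham mice of day 4, 5.62, 6.33 and 6.97 at day 7 and 7.56, 7.44 and 7.49 at day 20. Most sham arrays thus lay above the 3 young arrays, but 1 array of day 7 lay within their range. Over days 4 and 7 alone, the differences were 0.84 for Ctsl (adjusted p = 0.245), 0.69 for Prss16 (0.579) and 1.06 for Psmb11 (0.321), and 0 of the genes tested passed. Ly75 was not tested there; its sham means were 5.43 at day 4 and 4.81 at day 7 against 4.69 in young and 7.02 at day 20, the day through which it was tested. Leaving out young array 1, 2 or 3 left 2, 1 and 0 calls, with Ly75 counted. Psmb11 also missed the threshold without sham array 3 of day 4, sham array 3 of day 7 or sham array 1 of day 20 (adjusted p of 0.0502 to 0.0617, limma). None of the 9 genes passed between sham and unoperated middle-aged TEC, with differences of -0.27 to 0.89, while 1.87% of all genes were higher and 3.71% lower; at an unadjusted p under 0.05, 1 gene passed. Without middle-aged array 1, Ly75 passed at 1.05, again a description only, because it was tested through its day 20 groups.

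Prss16, Ctsl and Ly75 were higher at day 20 than at days 4 and 7. Mean levels in the 6 TEC arrays of day 20, castrated and sham together, were set against the 12 arrays of days 4 and 7. Ly75, the endocytic receptor, read 7.20, 7.35 and 7.40 in castrated and 6.62, 7.56 and 6.88 in sham mice of day 20. On the 12 earlier arrays it ran from 4.37 to 6.48, below every array of day 20. Its means differed by 2.27, which is a description only, since Ly75 entered the test through these day 20 groups and was too dim in the others. Prss16 read 8.91, 8.66 and 8.76 in castrated and 8.59, 8.61 and 8.66 in sham mice of day 20, above all earlier arrays (5.35 to 8.15), a difference of 1.58 ± 0.35 (adjusted p = 0.00062, limma). Ctsl was higher by 0.97 ± 0.23 (0.0010), though its day 20 arrays overlapped sham array 3 of day 4 (8.27), and Krt18 lower, at -0.40 ± 0.08 (0.00042). Psmb11 had a difference of 0.76 ± 0.33 that missed the threshold (0.0532). Prss16 and Ctsl higher and Krt18 lower stand beside 25.6% of all genes higher and 38.6% lower, so calls of either kind were common. With Ly75 counted, 3 of 9 genes were higher and 1 lower, a description only and close to that background. Markers of other cells were lower at day 20: 3 of 4 thymocyte, 4 of 7 pericyte, 2 of 3 endothelial, 2 of 4 fibroblast and 2 of 2 B cell markers tested. Of the 4 fibroblast markers, 1 was higher. Of 9 stress genes, 3 were higher and 4 lower. The part of these in the values above was not tested. The calls of Prss16, Ctsl and Krt18 held in every alternative run in which they were tested, including each array left out. No second probe was tested for them in this comparison. The call of Ly75, a description only, was not tested in every run and was present wherever it was. Day 20 and the shift of its arrays on the first principal component cannot be told apart.

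**Figure D2:**
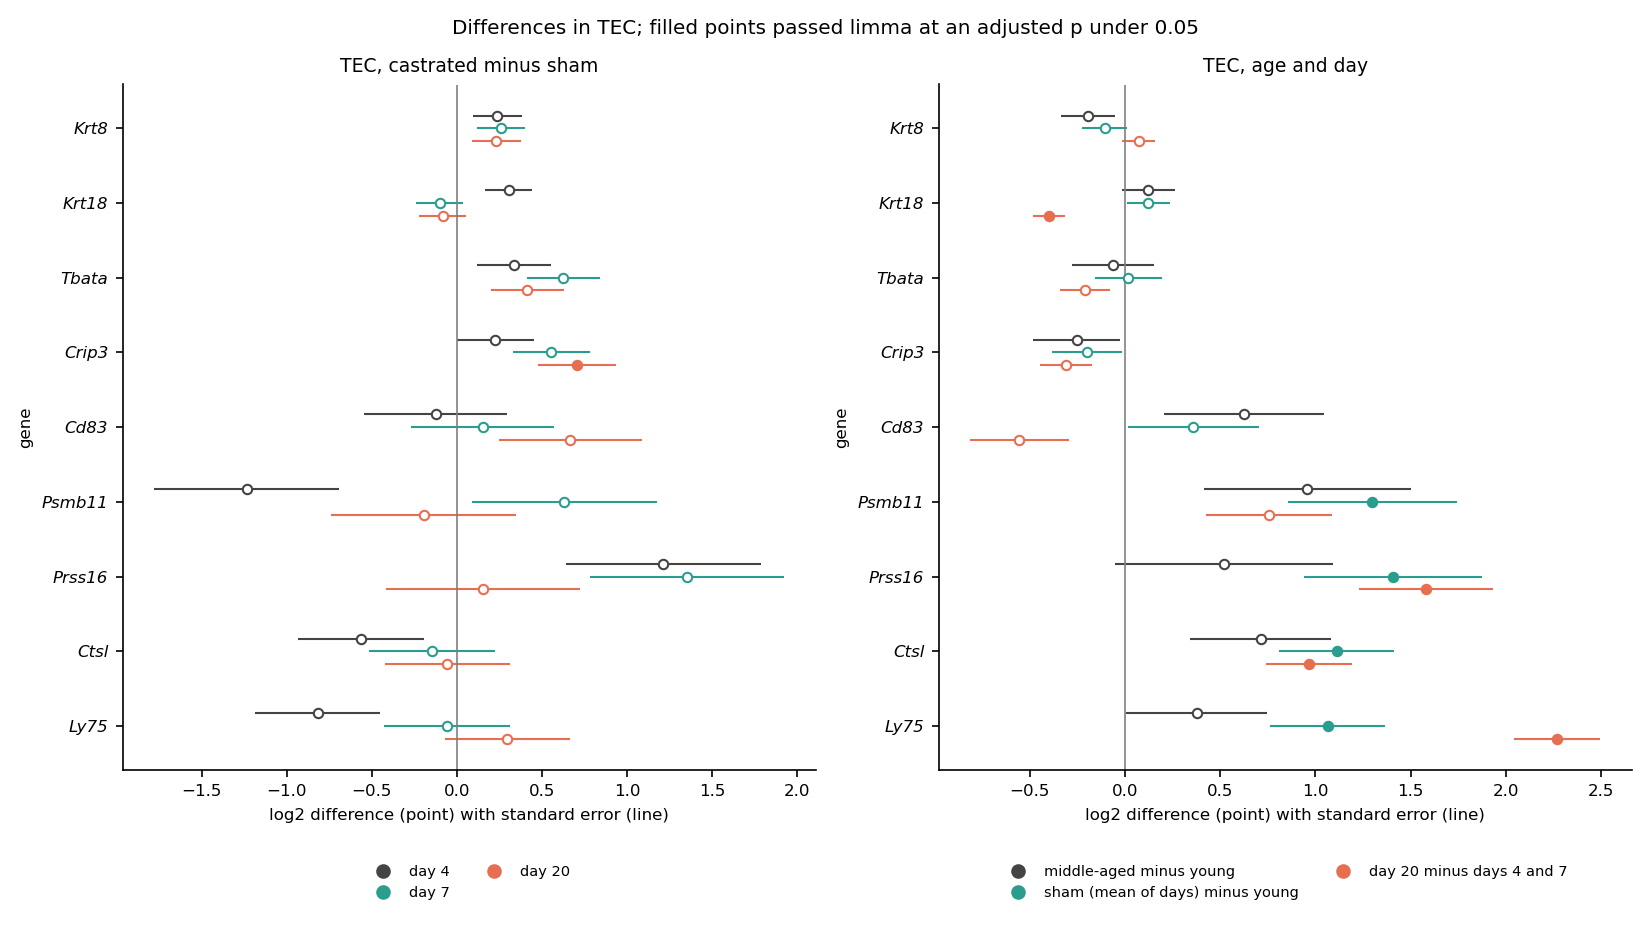
Log2 differences (points) with their standard errors (lines) for the 9 genes tested in TEC, castrated minus sham at each day (left) and age or day contrasts (right); filled points passed limma at an adjusted p under 0.05. Only Crip3 at day 20 is filled on the left, and Ly75 at 2.27 is the farthest point on the right.

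Tbata and Crip3, both known for their abundance in thymus, were slightly higher in TEC after castration. Crip3 read 11.87, 11.95 and 12.08 in castrated and 11.37, 11.16 and 11.26 in sham mice of day 20. At day 7 it read 11.91, 12.10 and 12.32 against 11.36, 11.54 and 11.77. No castrated array fell below a sham array at either of these days, but at day 4 (12.07, 12.21 and 12.10 against 11.71, 11.66 and 12.35) sham array 3 was the highest. Crip3 was 0.71 ± 0.23 higher at day 20 (adjusted p = 0.0295) and 0.49 ± 0.13 higher on average over the 3 days (0.0231, both limma). Tbata was higher by 0.46 ± 0.12 on average (0.0260); it read 13.90, 13.78 and 14.08 in castrated against 13.18, 13.52 and 13.19 in sham mice of day 7. In the average, 2 of 9 genes were higher and none lower, beside 5.87% of all genes higher and 4.95% lower. At day 20 it was 1 of 9, beside 13.1% higher and 9.4% lower. Without the day 20 arrays neither average passed (Crip3 0.39, adjusted p = 0.205; Tbata 0.48, 0.125). Leaving out 1 array in turn left 0 calls at day 20 without any castrated array or without sham array 2 or 3, and left 1 call in the average without sham day 7 array 3, castrated day 4 array 3, or sham day 20 array 2 or 3. The day 20 call of Crip3 was also lost with unoperated mice as the control (0.45, adjusted p = 0.104) or sham arrays pooled over days (0.39, 0.0953, limma). A second probe of Crip3 gave 0.70 on average with an adjusted p of 0.159, and the second probe of Tbata gave 0.53 with 0.0400.

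The other genes showed no castration call in TEC. At day 4, 0 of 9 genes passed, when 2.33% of all genes were higher and 1.29% lower; 4 had an unadjusted p under 0.05. Without castrated array 1, Krt18 passed at 0.44 (adjusted p = 0.0419) and Psmb11 at -1.75 (0.0404, limma). At day 7, 0 of 9 passed, when 0.0732% were higher and 0.0976% lower; 3 had an unadjusted p under 0.05. Prss16 was at 1.21 ± 0.57 at day 4 and 1.35 ± 0.57 at day 7. It read 7.54, 7.98 and 7.89 in castrated and 6.65, 6.71 and 5.99 in sham mice of day 7, groups that did not overlap. Psmb11 at day 4 read 7.07, 5.57 and 5.49 in castrated and 6.89, 6.52 and 8.43 in sham mice, a difference of -1.24 ± 0.54 that shrank to -0.66 without sham array 3, the array with more fibroblast and thymocyte marker signal. Castrated arrays 2 and 3, the low ones, also stood apart on the second component. The average over days was 0.24 ± 0.08 for Krt8 (adjusted p = 0.0623, limma) and 0.91 ± 0.33 for Prss16 (0.0791). No difference between the days in the effect of castration passed for the 9 genes (adjusted p of 0.208 or more, limma), while 17% of all genes changed by that test. Over all genes tested, 13.1% were higher and 9.4% lower with castration at day 20. Beside the values of the 9 genes, the pan-leukocyte markers moved that day: 4 of 4 tested were higher. Their mean ran from 10.98 to 11.24 in castrated and from 9.75 to 10.11 in sham TEC. Of 9 medullary markers tested, 5 were higher, with group means of 11.27 and 10.27, and 4 of 9 stress genes were lower. Their part in the Crip3 value was not tested.

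In nonTEC, 5 of the 6 genes tested (Tbata, Crip3, Krt8, Krt18 and Cd83) fell with age and rose after castration. Tbata was above the dim threshold in all 6 groups and read 10.51, 10.36 and 11.43 on the young arrays and 7.48, 9.45 and 9.74 on the middle-aged arrays. Krt8 read 9.80, 9.63 and 10.74 in young and 7.41, 9.00 and 8.69 in middle-aged nonTEC. Crip3 read 7.56, 7.55 and 8.62 in young and 5.08, 6.48 and 7.01 in middle-aged nonTEC. For each of these 3 genes every young array lay above every middle-aged one, and middle-aged array 1 was the lowest; 40.1% of all genes tested did not overlap between these groups. The differences were -1.88 ± 0.41 for Tbata (adjusted p = 0.00239), -1.72 ± 0.38 for Crip3 (0.00277), -1.69 ± 0.33 for Krt8 (0.00119), -1.5 ± 0.32 for Krt18 (0.00223) and -1.23 ± 0.31 for Cd83 (0.0065; all limma). That is 5 of 6 genes lower, and the median of the 6 was -1.59 against 0.01 over all genes; 15.5% of all genes were lower and 16.8% higher. Ctsl was the exception, at 7.30, 7.07 and 7.22 in middle-aged against 6.80, 6.95 and 6.45 in young nonTEC (0.46 ± 0.18, adjusted p = 0.0586, limma). All 5 calls held in every alternative and with each array left out. Sham minus young, the differences were -2.81 for Tbata, -2.61 for Crip3, -2.58 for Krt8 and -2.01 for Krt18 and for Cd83 (limma adjusted p of 6.44e-05 or less), 5 of 6 genes where 13.3% of all genes were lower and 16.2% higher.

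Castration was followed by higher levels of the same 5 genes in nonTEC at day 4. Tbata read 9.54, 9.84 and 9.58 in castrated and 7.56, 7.16 and 7.80 in sham mice, a difference of 2.14 ± 0.41 (adjusted p = 0.00645, limma). Krt8 read 8.64, 9.41 and 8.74 against 7.21, 7.05 and 7.02, a difference of 1.84 ± 0.33 (0.00544). Krt18 read 8.56, 8.89 and 8.05 against 6.76, 6.57 and 6.35, a difference of 1.94 ± 0.32 (0.00491). Crip3 was higher by 1.61 ± 0.38 (0.0206) and Cd83 by 1.17 ± 0.31 (0.0338). Cd83 was below the dim threshold in both groups (means of 6.39 and 5.23) and Crip3 in the sham group (5.21), so both sizes are less secure. Of the 6 genes tested, 5 were higher and 0 lower, beside 2.65% of all genes higher and 3.65% lower. The castrated and sham arrays did not overlap for any of the 6, Ctsl included (means 0.13 apart), where 28.7% of all genes tested did not overlap. Leaving out castrated array 1 or 2 or any sham array removed the calls of Crip3 and Cd83 and left 3. Set against unoperated middle-aged mice in place of sham mice, 1 call was left (Krt18): Tbata was higher by 0.76 and Krt8 by 0.57, neither past the threshold.

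At day 7 the same genes had positive differences but fewer calls. Crip3 read 7.62, 7.55 and 7.05 in castrated against 5.20 and 5.55 in sham nonTEC, a difference of 2.03 ± 0.43 (adjusted p = 0.0384, limma), the 1 call among 6 genes. Tbata was at 1.52 ± 0.46 (0.157), Krt18 at 1.26 ± 0.36 (0.138), Cd83 at 1.2 ± 0.35 (0.148) and Krt8 at 0.93 ± 0.37 (0.354). Over all genes, 0.0515% were called higher and 0.386% lower that day, with 2 sham arrays. Arrays of the 2 groups did not overlap for 5 of the 6 genes, against 34.7% of all genes tested. No call remained when any 1 of the 5 arrays was left out. Averaged over days 4 and 7, 5 of 6 genes were higher: Tbata by 1.83 ± 0.31, Crip3 by 1.82 ± 0.29, Krt18 by 1.60 ± 0.24, Krt8 by 1.38 ± 0.25 and Cd83 by 1.18 ± 0.23 (adjusted p of 0.00605 or less), when 2.73% of all genes were higher and 3.81% lower. Cd83 missed the threshold (0.0525) without sham day 7 array 2. Ctsl was at -0.04 ± 0.14. No gene passed between sham and unoperated middle-aged nonTEC, although all 6 differences were below 0 (-0.17 to -0.93) and 4 had an unadjusted p under 0.05; 0.244% of all genes were higher and 0.0386% lower. Without middle-aged array 1, Tbata passed at -1.64 (adjusted p = 0.0273, limma).

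The order of the group means in nonTEC was the same for Tbata, Crip3 and Cd83: young, castrated at day 7, castrated at day 4, middle-aged unoperated, sham at day 7, sham at day 4. Krt8 and Krt18 had the castrated groups of day 4 and 7 in the other order. Most neighbours in this order overlapped, and for Tbata the arrays were separated only between young and castrated day 7 (means 0.83 apart) and between sham day 7 and sham day 4 (0.90). For Krt8 they were separated between young and castrated day 4 (1.12) and between sham day 7 and day 4 (0.77). For Krt18 they were separated between castrated day 7 and middle-aged (0.91). For Cd83 they were separated between young and castrated day 7 (0.64) and between castrated day 7 and day 4 (0.38). In TEC, Ly75 was separated between sham day 20 and sham day 4 (means 1.59 apart) and Prss16 between sham day 20 and castrated day 7 (0.82). Tbata was separated between castrated day 4 and castrated day 20 (0.21) and Krt8 between castrated day 7 and young (0.09). All other TEC neighbours overlapped. The share over all genes was not computed for neighbouring groups, so these separations are a description only.

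**Figure D3:**
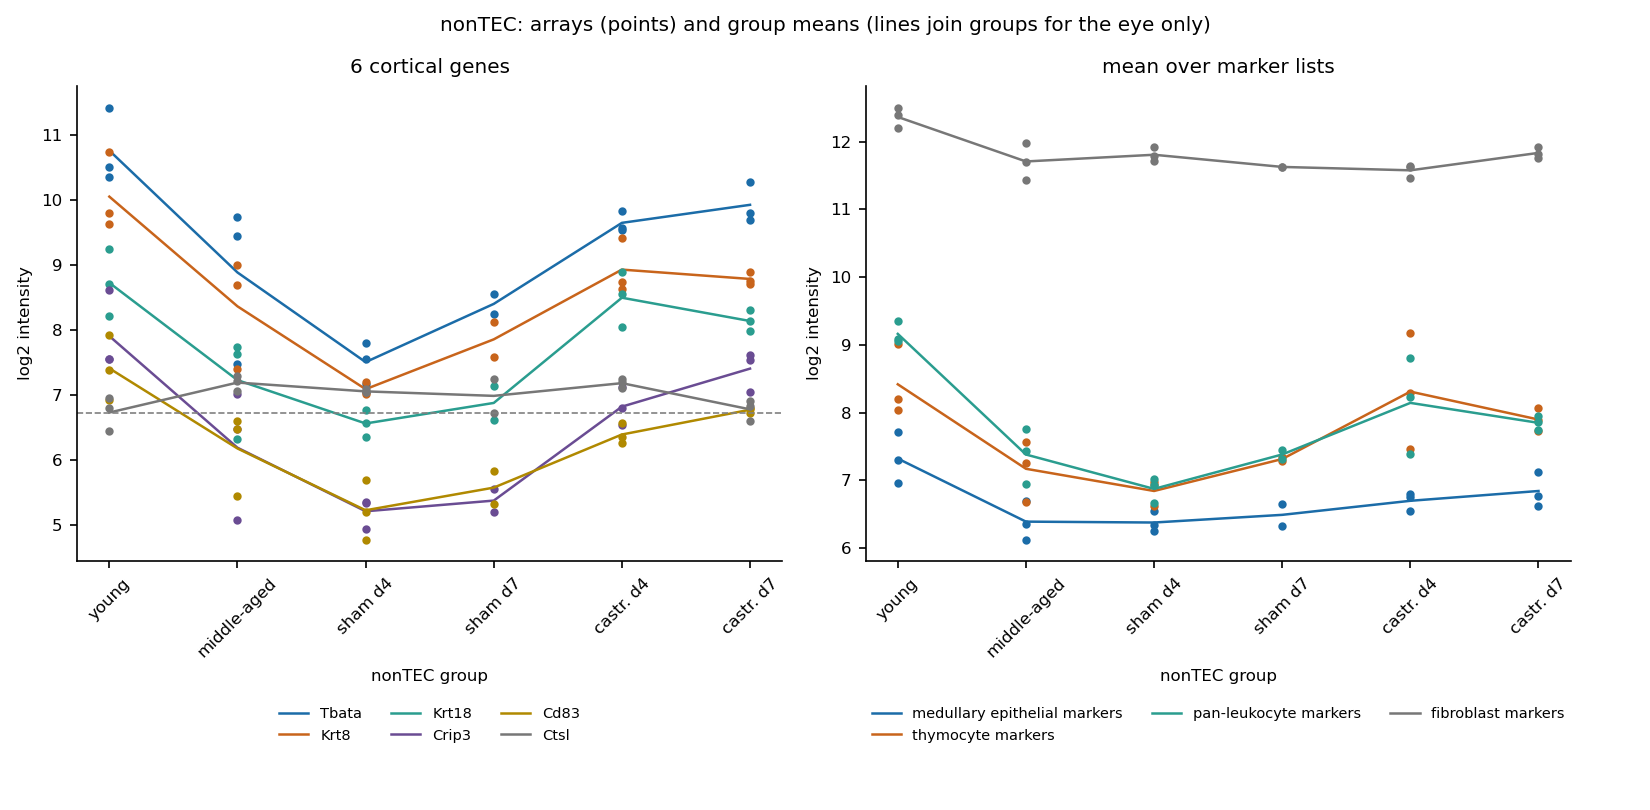
Log2 intensity of the 6 genes tested in nonTEC (left) and the mean log2 intensity over marker lists (right) in the 6 nonTEC groups; points are arrays, lines join group means for the eye and the dashed line is the dim threshold. Tbata, Krt8, Krt18, Crip3 and Cd83 are highest in young and lowest in sham mice of day 4, and the thymocyte and pan-leukocyte means run the same way, from 8.42 to 6.84 and from 9.16 to 6.87.

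Markers of other cells moved beside these genes in nonTEC. Over all genes tested, 15.5% were lower and 16.8% higher with age, and 2.65% were higher and 3.65% lower at day 4 after castration. Of 12 thymocyte markers 9 were present and 6 tested; all 6 were lower in middle-aged mice and all 6 higher at day 4 after castration. Their mean was 8.03 to 9.02 on the young arrays, 6.68 to 7.57 in middle-aged, 6.62 to 6.97 in sham and 7.46 to 9.18 in castrated nonTEC of day 4. Cd4, Ptcra and Themis were too dim in every nonTEC group. Of the pan-leukocyte markers 4 of 4 tested were lower with age and 4 higher at day 4, with means of 9.05 to 9.35 in young, 6.94 to 7.76 in middle-aged, 6.67 to 7.02 in sham and 7.39 to 8.81 in castrated mice, though Ptprc and Cd53 were too dim throughout. Medullary epithelial markers also moved with age: 4 of 6 tested were lower and 1 higher. Their mean was 6.96 to 7.71 in young and 6.12 to 6.69 in middle-aged nonTEC. Aire fell by 2.26, which is a description only, since it entered the test through the young group and was too dim in the others. Cldn4 was also too dim in 5 of the 6 nonTEC groups, so the count of medullary markers is less secure. At day 4 after castration 1 of the 6 medullary markers was higher. Of 8 fibroblast markers tested, 5 were lower with age and 1 lower at day 4. The part of these cells in the results was not tested.

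The difference between the fractions was tested directly, over the 8 genes with values in both; Psmb11 and Prss16 were too dim in nonTEC. Array medians differ between the fractions, which may have been normalized separately, so levels between them are less secure than differences within them. The median of all genes was -0.30 in young and -0.24 in middle-aged mice (TEC minus nonTEC). In young mice Crip3 was 3.86 ± 0.32 higher in TEC, Krt18 3.76 ± 0.26, Krt8 3.29 ± 0.27, Tbata 2.57 ± 0.35 and Cd83 1.77 ± 0.39 (limma adjusted p of 0.000203 or less). That is 5 of 8 genes, where 24.3% of all genes were higher in TEC and 42.1% lower. In middle-aged mice the same 5 were higher, Krt18 by 5.38 ± 0.26, Crip3 by 5.33 ± 0.32, Krt8 by 4.79 ± 0.27, Tbata by 4.38 ± 0.35 and Cd83 by 3.63 ± 0.39, against 28.5% of all genes higher and 41.7% lower. Psmb11 passed as a sixth gene, but it was too dim in both groups compared (means of 6.69 and 4.98), so no size is given. Prss16 and Ctsl did not pass in either age group (Prss16 -0.81 ± 0.50 and 0.61 ± 0.50; Ctsl -0.18 ± 0.31 and 0.07 ± 0.31).

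The ageing difference itself differed between the fractions for 5 of the 8 genes. TEC minus nonTEC, it was 1.86 ± 0.55 for Cd83 (adjusted p = 0.0269), 1.81 ± 0.49 for Tbata (0.0144), 1.62 ± 0.36 for Krt18 (0.00348), 1.49 ± 0.38 for Krt8 (0.00907) and 1.46 ± 0.46 for Crip3 (0.0337, all limma), where 7.78% of all genes were higher by this measure and 3.45% lower. The castration difference, averaged over days 4 and 7, was lower in TEC for Krt18 (-1.5 ± 0.26, adjusted p = 0.00138), Crip3 (-1.43 ± 0.33, 0.0119), Tbata (-1.35 ± 0.36, 0.0215) and Krt8 (-1.14 ± 0.27, 0.0142), 4 of 8 genes, against 2.37% of all genes lower and 3.68% higher. Cd83 was at -1.17 ± 0.40 (0.0734). Fitted on the arrays compared alone, none of the 5 ageing differences passed (adjusted p of 0.124 to 0.280, limma). The second probes of Crip3 and Tbata gave ageing differences of 0.14 (0.921) and 1.12 (0.174), and castration differences of -0.59 (0.503) and -0.99 (0.112), not past the threshold. Leaving out nonTEC young array 3 left 2 of the 5 ageing calls, and leaving out nonTEC sham day 7 array 2 left 2 of the 4 castration calls. Without young TEC array 2 or 3, middle-aged TEC array 1 or nonTEC middle-aged array 1, 3 ageing calls were left. Crip3 also missed the threshold (0.0632) without middle-aged array 3, castrated day 4 arrays 2 and 3 and sham day 4 array 3 of TEC together. Without middle-aged TEC array 3, Cd83 and Crip3 lost the call and Psmb11 gained it (1.88, adjusted p = 0.0240, limma).

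**Figure D4:**
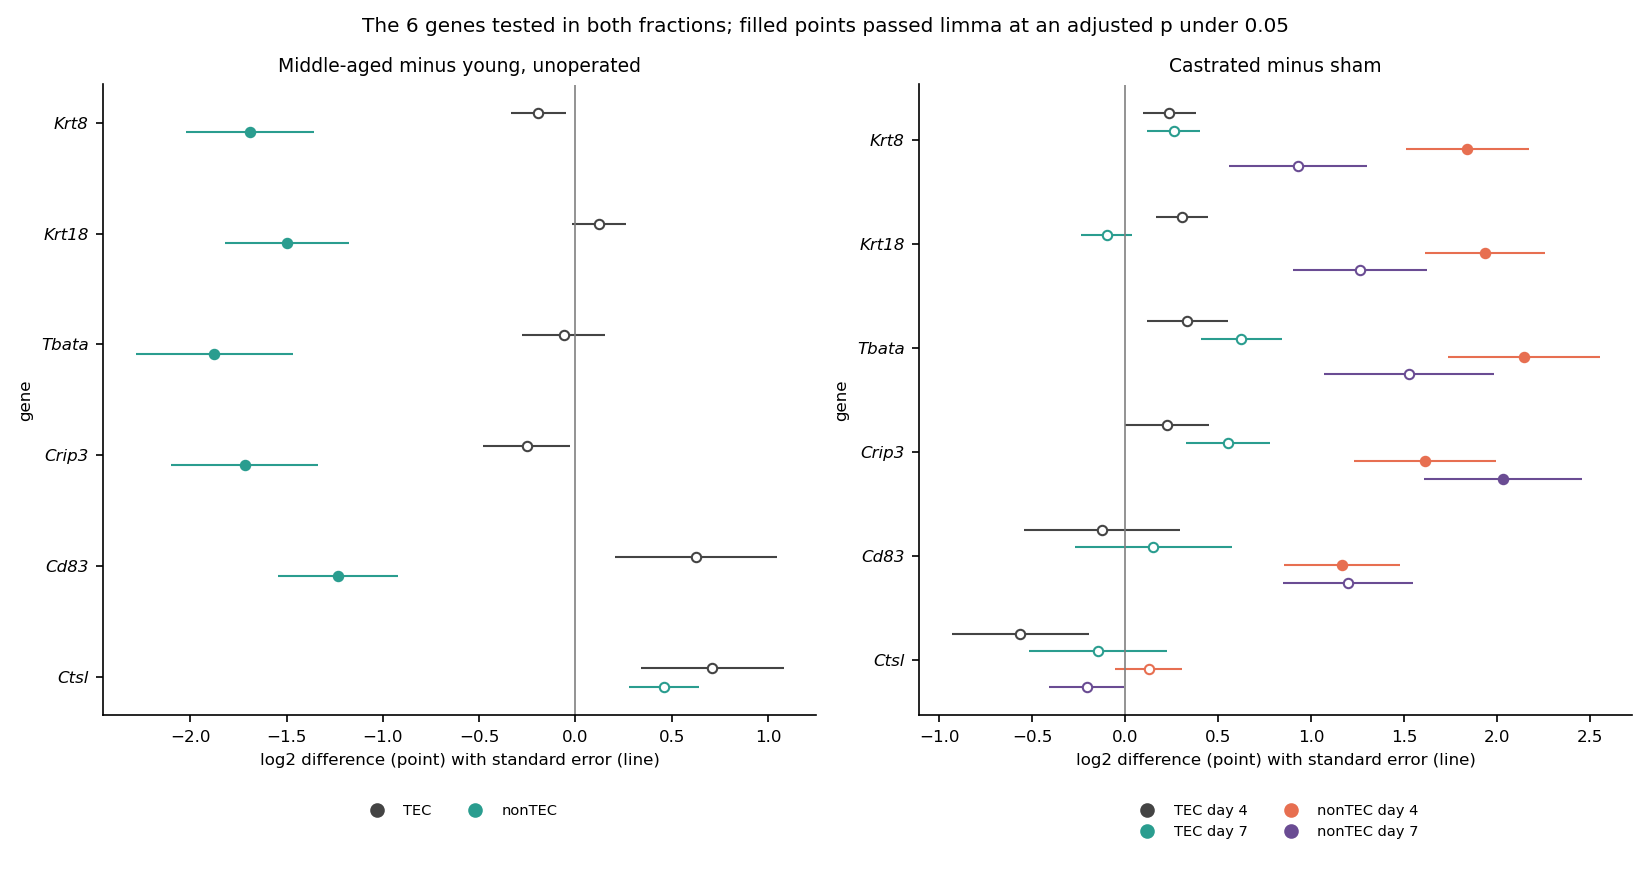
Log2 differences (points) with standard errors (lines) of the 6 genes tested in both fractions, middle-aged minus young (left) and castrated minus sham (right); filled points passed limma at an adjusted p under 0.05. The nonTEC ageing points of Krt8, Krt18, Tbata, Crip3 and Cd83 lie between -1.23 and -1.88, while the TEC points of the 5 genes lie between -0.25 and 0.63.

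Companion genes of the same pathways, listed beside the 10, were followed in the same fits. Of 11 genes of class I peptide supply (constitutive and immunoproteasome subunits, the proteasome activator and the peptide transporter), all were tested in TEC and 3 fell with age: Psmb7 (-0.57), Psmb6 (-0.55) and Psmb5 (-0.51; limma adjusted p of 0.038 or less), the catalytic subunits that β5t and its immune counterparts replace. Over all genes, 6.88% were lower with age. At day 20 against days 4 and 7, 3 of 11 were higher and 3 lower. These shares were close to the 25.6% of all genes higher and below the 38.6% lower. Tap1, a subunit of the peptide transporter, was at -0.82 and Psmb10 at -0.77. Of 13 class II processing genes, 11 were tested in TEC. Ifi30, a lysosomal thiol reductase, was at -1.0 and Ctsh, cathepsin H, at -0.69 with age, both lower, 2 of 11, and both were higher 20 days after castration (0.97 and 1.22), beside H2-Eb1 (0.25), 3 of 11 where 13.1% of all genes were higher. In nonTEC 7 of 10 tested were lower with age, against 15.5% of all genes, with Cd74, the invariant chain, at -1.63. Of 8 genes of Notch ligands and their modifiers, 3 were tested in TEC. At day 20 against days 4 and 7, Jag2 was higher by 1.53, where 25.6% of all genes were higher. Dll1 was at 1.29, which is a description only, since it passed the dim threshold only in the day 20 groups. Mfng, a Fringe that modifies Notch, was 1.56 higher in castrated than sham mice of day 20, 1 of 3 where 13.1% of all genes were higher.

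All 8 other keratins were tested in TEC and none changed with age there. Krt17 (-2.78) and Krt10 (-0.84) fell with age in nonTEC, and Krt17 and Krt14 rose after castration at day 4 (1.60 and 1.84), 2 of 3 tested in each case, against 15.5% of all genes lower with age and 2.65% higher at day 4. Of 14 other cortical genes, 9 were tested in TEC; Tbx1 (1.55), Eya1 (0.84) and Cxcl12 (1.49) were higher with age, 3 of 9 against 11.9% of all genes. Slc46a2, a transporter of thymic epithelium, was 0.84 higher at day 4 and lower, at -1.34, at day 20 after castration. Fgfr2, a receptor of epithelial growth factors, was lower, at -1.11, at day 20, and 4 of 9 were lower that day, against 9.4% of all genes. In nonTEC 5 of the 14 were tested. With age 2 were higher and 2 lower, beside 16.8% and 15.5% of all genes. At day 4 after castration 1 was higher, where 2.65% of all genes were. Ccl25, the chemokine that draws progenitors into the thymus, fell by 1.68 with age and was 1.63 higher at day 4.

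Genes of most similar pattern were found by Pearson correlation over the 24 TEC arrays, as a description with no test, since arrays of a group share their condition. Tbata and Crip3 were each other's closest gene (r = 0.90). Psmb11 lay closest to Man2a1 (0.90), a mannosidase of the Golgi, and to Ctsl (0.89), and Ctsl to Man2a1 (0.92) and Mtcl1 (0.92). Prss16 was nearest to Cdc40 (0.93), Ly75 to Tfcp2l1 (0.92), Krt8 to F11r (0.91) and Krt18 to Napa (0.84). Once group means were taken out, the correlation stayed at 0.88 for Tbata and Crip3 and at 0.94 for Psmb11 and Man2a1, but dropped to 0.24 for Ly75 and Tfcp2l1. Cd83 lay closest to Ppp1r27 (0.90).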

How the data were processed

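Cells were sorted per the labels, RNA was labelled as biotin cRNA and hybridized to Illumina mouse bead arrays. The authors deposited a table of log2 intensity per probe, already normalized: the median of a TEC array was 6.68 and that of a nonTEC array 6.81 to 6.82, so the fractions may have been normalized separately. The log base is not stated and was taken as 2. limma is named in the submitters' processing notes; for background correction, probe filter and genome build, a method was not given in the sources used here. Of 24671 probes, 20825 had 1 gene symbol in the platform annotation, 11 several and 3835 none. TEC had values for 21242 probes, nonTEC for 21815 and both for 18386.

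A gene took its probe of highest mean. Genes with at least 1 group mean above 6.73, the median of all values, were tested with limma 3.58.1 (R 4.3.3; group means, empirical Bayes with a trend, Benjamini-Hochberg over all genes tested, adjusted p under 0.05): 8195 genes in TEC, 7771 in nonTEC and 8487 across fractions, in 19 comparisons. Figures used matplotlib 3.10.9. In data simulated from these arrays, TEC ageing recovered 66% of genes changed by 1 log2 unit and 91% of those changed by 2, and nonTEC ageing 75% and 99%. Recovery was lowest for the castration effect between days in TEC, at 27% and 63%. The ageing difference between fractions recovered 39% and 87%. Named genes were the 10 members, their companion lists and, for each member, the 3 genes of highest correlation over TEC arrays. Members and lists were chosen with earlier results of these data known. Alternatives covered the filter, normalization, probe choice, variance model, array weights, controls, a replicate block and each array left out; the second probe and the runs without day 20 arrays were added after seeing the data.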

Additional observations from a re-analysis of the deposited data

Results flagged for a closer look

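Flagged because the effect of age, or of castration, differed between TEC and nonTEC by an interaction test in limma, 9 results are given here as TEC minus nonTEC. For middle-aged minus young the difference of log2 differences was 1.86 for Cd83, 1.81 for Tbata, 1.62 for Krt18, 1.49 for Krt8 and 1.46 for Crip3. For castrated minus sham over days 4 and 7 it was -1.5 for Krt18, -1.43 for Crip3, -1.35 for Tbata and -1.14 for Krt8. Thymocyte and pan-leukocyte markers moved the same way in nonTEC, and their part in these values was not tested. No group held enough arrays for a test of outlying arrays.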

How the results depend on the processing

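No value changed direction while called, and over the settings other than leaving out single arrays, 1546 values were the same, 74 gained a call, 38 lost one and 55 moved. The counts that moved are given in genes called, beside the count reported, and the cause was not tested. With array weights, TEC ageing gave 3 (0 reported), castration in TEC 4 at day 4 (0), 4 at day 7 (0), 4 at day 20 (1), 5 on average (2) and 4 between days (0), day 20 against days 4 and 7 gave 8 (4), and in nonTEC castration at day 7 gave 5 (1) and sham against unoperated 1 (0). Fitted on the compared arrays only, castration in TEC gave 1 at day 7, 4 at day 20 and 4 on average, day 20 against days 4 and 7 gave 7, castration in nonTEC at day 7 gave 5 and the ageing difference between fractions 0 (5). The mean of all probes gave 0 for castration in TEC at day 20 and 0 on average, 0 in nonTEC at day 7, 3 for the ageing difference and 2 for the castration difference (4). One fit of all 41 arrays gave 0 for TEC at day 20, 1 on average and 2 for nonTEC at day 7. Sham arrays pooled over days gave 1 for TEC at day 4, 3 at day 20 and 5 for nonTEC at day 7; unoperated controls gave 3 for TEC at day 20 (Crip3 not among the genes called under either control) and 1 for nonTEC at day 4 (5). The stricter dim threshold of 7.84 gave 2 for TEC sham against young (4) and 0 for nonTEC at day 7. Without 4 TEC arrays that earlier results described as standing apart (middle-aged 3, castrated day 4 2 and 3, sham day 4 3), TEC ageing gave 2; without day 20 arrays, TEC castration on average gave 0 and sham against young 0.

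Same-numbered arrays deviated together little on average (mean correlation 0.072 in TEC, -0.439 to 0.729, and -0.005 in nonTEC, -0.340 to 0.549). Differently numbered arrays had means of -0.037 in TEC and 0.003 in nonTEC. These means do not settle whether arrays were paired, and the numbers were not used as pairs. With a replicate block, day 20 against days 4 and 7 gave 6 calls. Castration in nonTEC at day 7 gave 0 (Crip3 1.93, adjusted p = 0.0803, limma), and no other count changed. With each array left out in turn, counts ran from 0 to 2 for TEC ageing, 0 to 2, 0 to 0 and 0 to 1 for castration in TEC at day 4, 7 and 20, 1 to 3 on average and 0 to 0 between days, 0 to 1 for sham against unoperated, 4 to 6 for day 20 and 0 to 4 for sham against young. In nonTEC they ran from 5 to 6 for ageing, 3 to 5 and 0 to 0 for castration at day 4 and 7, 4 to 5 on average, 0 to 1 for sham against unoperated and 5 to 6 for sham against young; across fractions 5 to 5 in young, 6 to 7 in middle-aged mice, 2 to 6 for the ageing and 2 to 4 for the castration difference. Dim signal limits Dll4 everywhere and Psmb11 and Prss16 in nonTEC.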
